A study of Homo sapiens with 4 samples.

Results

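The ATP-binding cassette (ABC) transporter family was examined in ribosome profiling data of K562 and HepG2 cells. Members were the protein-coding genes whose symbol is ABCA, ABCB, ABCC, ABCD, ABCE, ABCF or ABCG followed by a number. They were found through the Ensembl identifier in the junction tables, which gave 45 of 35189 genes and 1530 of 350863 annotated splice junctions. The rule leaves out TAP1, TAP2 and CFTR, which belong to the family by descent but carry other symbols. K562 came from a chronic myelogenous leukemia and has erythroid traits, and HepG2 came from a liver tumor and keeps hepatocyte traits. Both are untreated established lines as far as the labels state, with 2 samples each, and both were lysed with cycloheximide, which arrests elongating ribosomes. The labels tie both samples of a line to 1 table of footprint reads that span splice junctions, so no value here has a replicate check. Each interval is an exact 95% one, limited to the error of counting reads.

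ABC transporters couple the hydrolysis of ATP to the movement of a substrate across a membrane. A working transporter joins a pair of membrane domains to a pair of nucleotide-binding domains, either within 1 long protein or by pairing of shorter proteins. In hepatocytes such pumps export phospholipid, sterols, conjugated bilirubin and drugs into bile, and others pass cholesterol to lipoproteins. Most members of subfamily D carry fatty acyl chains into peroxisomes. Members of subfamilies E and F have no membrane domain and act with ribosomes.

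Reads of the members that lay furthest apart between the lines came from messages such as the following, shown so that the counted molecule can be seen. Each sequence is the exon-exon junction with the most reads among the coding junctions of that gene, read 5′ to 3′ on the message from the GENCODE transcripts, with the last 15 bases of the upstream exon in lower case and the first 15 bases of the downstream exon in capitals. The first 4 genes were higher in HepG2 and the last 4 in K562.
ABCC2: gatgcccttgtcctgGAAGATGTTGAAAAG
ABCB4: gaagctgctggaaagATTGCAACAGAGGCA
ABCA1: aaggagttgacgaagATATATAGAAGGAAG
ABCB1: tcaaagattatagggGTTTTTACAAGAATT
ABCA3: aactacaccctgcagAAGCGGAAGGTCCTG
ABCC4: agcgacaagataatgGTTTTAGATTCAGGA
ABCB8: ctctatggtgtccagGGACTGCTGACCTTC
ABCF2: ctgaagtattatacgGGTAATTATGATCAG
On GRCh38 these flank the introns chr10:99797332-99799206 (plus strand, ABCC2), chr7:87413718-87417311 (minus, ABCB4), chr9:104791999-104792785 (minus, ABCA1) and chr7:87541465-87544128 (minus, ABCB1). The other introns are chr16:2326275-2326412 (minus, ABCA3), chr13:95034740-95043681 (minus, ABCC4), chr7:151034429-151034504 (plus, ABCB8) and chr7:151219160-151221577 (minus, ABCF2). The ABCC2 junction had 0 reads in K562 against 162 in HepG2, the ABCB4 junction 0 and 66, the ABCA1 junction 1 and 168, and the ABCB1 junction 1 and 330. The ABCC4 junction had 131 reads in K562 against 27 in HepG2, the ABCB8 junction 184 and 53, the ABCF2 junction 363 and 185, and the ABCA3 junction 12 and 1.

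The tables held 7487508 uniquely mapped junction reads in K562 and 9927809 in HepG2, and after scaling by TMM the effective depths differed by a factor of 0.995, so that raw reads of the lines can be set side by side. Hepatocyte markers fitted the HepG2 label (6 of 6 higher there, 797590 summed reads against 213) and erythroid and blood markers the K562 label (6 of 6, 5995 against 2). Over all genes 21.9% were higher in HepG2 and 16.8% in K562. Only 2 hepatocyte and 0 erythroid and blood markers had 20 or more reads in each line. Of 3 fibroblast markers 2 were compared, and both were higher in K562 (243 summed reads against 1). Of 3 markers of other epithelium 0 were compared. ABC members took 16204 reads in K562 (0.224% of reads at junctions of 1 gene) and 23676 in HepG2 (0.246%). A footprint count holds message abundance and ribosome load together, and these cannot be told apart here.

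The family took a similar share of the unscaled footprint total in both lines, but different members supplied it. At the TMM scale, where raw reads can be set side by side, the family was higher in HepG2 (23676 reads against 16204). The soluble translation factors ABCE1 and ABCF1 to ABCF3 gave 55.3% of the member reads in K562 and 27.6% in HepG2. ABCF1 led in K562 with 21.5% of member reads, followed by ABCE1 with 17.0%, ABCF2 with 12.2% and the exporter ABCC4 with 11.3%. The peroxisomal transporter ABCD3 led in HepG2 with 23.7%, followed by ABCF1 with 10.5% and ABCB1 and ABCE1 with 9.11% and 9.09%.

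Of the 45 members, 29 had 20 or more reads over both tables and were compared, and 16 had fewer. The call "higher" required that all of the interval of the ratio lie past 2-fold. By this rule 5 members were higher in K562, where 16.8% of all 10956 genes were, and 12 members were higher in HepG2, where 21.9% of all genes were. The other 12 members were past neither limit. Of all genes, 38.7% were past a limit in either direction. The log2 ratio of K562 to HepG2 had a median of -0.75 over the 29 members and -0.01 over all genes. Of the 29 members, 10 had under 20 reads in 1 line, 9 of them in K562 and 1 in HepG2, so these entered through the line where they were high. Among the 19 members with 20 or more reads in each line, 4 were higher in K562, 3 in HepG2 and 12 past neither limit. The shares over all genes were taken without this minimum in each line, so they are no match for such counts here or below.

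**Figure D1:**
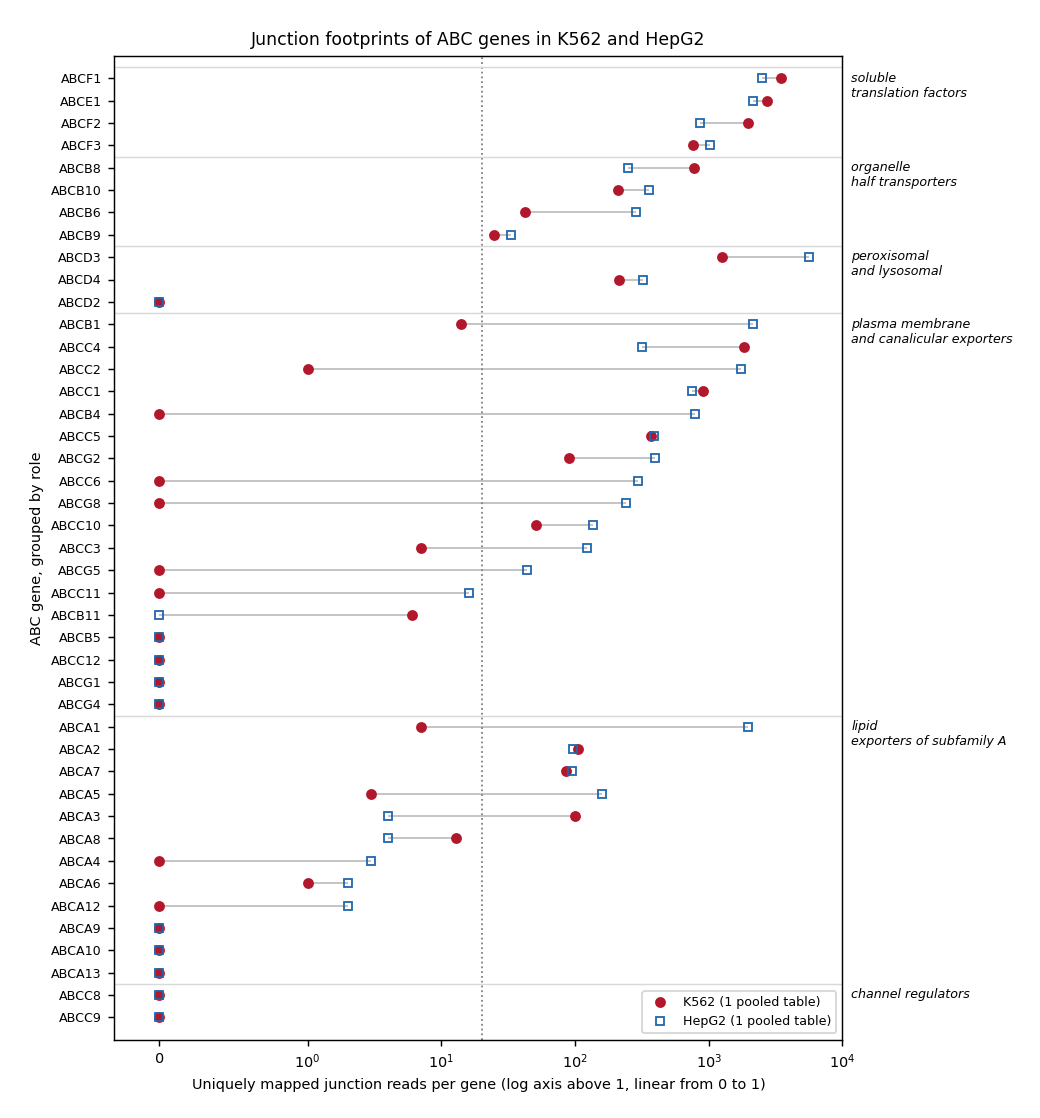
Uniquely mapped junction reads (x axis, log above 1 and linear from 0 to 1) of each of 43 ABC genes (y axis, grouped by role) in the pooled K562 table (filled circles) and the pooled HepG2 table (open squares); the dotted line marks 20 reads. The exporters ABCB1, ABCC2, ABCB4, ABCC6, ABCG8 and ABCG5 have 44 to 2156 reads in HepG2 against 0 to 14 in K562. The translation factors ABCE1, ABCF1 and ABCF3 lie close together, and ABCF2 has 1974 reads in K562 against 864 in HepG2.

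Several exporters of the plasma membrane and of the bile canaliculus were read in HepG2 and hardly or not at all in K562. Of 18 such genes 12 were compared, 8 were higher in HepG2, 1 in K562 and 3 past neither limit, beside 21.9% of all genes higher in HepG2 and 16.8% in K562. Of the 12, 7 had under 20 reads in K562 and could enter only through HepG2. Among the 5 exporters with 20 or more reads in each line, ABCG2 was higher in HepG2, ABCC4 in K562 and 3 past neither limit. ABCC2 (ENSG00000023839, chromosome 10, 99782640 to 99852594), which exports bilirubin glucuronides and other conjugates into bile, had 1 read in K562 and 1747 in HepG2, a HepG2 to K562 ratio of 1755 (315 to 69364). All 28 of its junctions with 10 or more reads lay past 2-fold toward HepG2. A junction without reads in K562 passes by that read minimum alone, so this count adds no support.

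ABCB1 and ABCB4 are neighbours on the minus strand of chromosome 7, with 23197 bases between them. ABCB1 (ENSG00000085563, 87503633 to 87713323) encodes P-glycoprotein, an exporter of many drugs, and had 14 reads in K562 against 2156 in HepG2, a HepG2 to K562 ratio of 155 (92.0 to 283). ABCB4 (ENSG00000005471, 87401697 to 87480435) encodes the floppase that brings phosphatidylcholine into bile. It had 0 reads in K562 against 789 in HepG2, at least 214-fold higher in HepG2 by the interval and 264-fold with the count of 0 set to a floor of 3. The 535 compared genes of chromosome 7 had a median log2 ratio of 0.42, and the part of the chromosome in these ratios was not tested. In HepG2 the level of ABCB1 was above that of ABCB4 by 2.99-fold (2.75 to 3.26) in reads per coding junction, over 26 junctions in each gene. The median was 66.5 reads per junction in ABCB1, between 15 and 330, and 27 in ABCB4, between 1 and 66. So the ranges over junctions overlapped, and the interval leaves this spread out. A junction offers a footprint of a given size the same number of positions in each gene, so reads per junction compare genes per length. This holds only as far as the reads of the genes map uniquely to the same degree.

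ABCG5 and ABCG8 encode the partners of 1 transporter of sterols into bile and lie head to head on chromosome 2, ABCG5 (43812472 to 43838865) on the minus strand and ABCG8 (43831942 to 43882987) on the plus strand. ABCG8 had 0 reads in K562 against 240 in HepG2, at least 64.9-fold higher in HepG2 by the interval and 80.4-fold at the floor of 3. ABCG5 had 0 and 44 reads, at least 11.5-fold higher in HepG2 by the interval and 14.7-fold at the floor. The partners had 12 coding junctions each in the transcripts used, with 240 and 42 reads in HepG2, and the level per junction of ABCG8 was 5.71-fold that of ABCG5 (4.10 to 8.13). The median was 14.5 reads per junction in ABCG8, between 6 and 57, and 2 in ABCG5, between 0 and 12. So the ranges over junctions overlapped. ABCG2, the breast cancer resistance protein and an exporter of urate and drugs, had 90 reads in K562 against 395 in HepG2, a HepG2 to K562 ratio of 4.41 (3.50 to 5.61).

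The windows of 250 bases before and 50 after the RefSeq starts of ABCG5 and ABCG8 share 231 bases, and the ABCG8 window is shown because both genes were at 0 reads in K562 and read in HepG2. It is chr2:43838721-43839020 on the plus strand of GRCh38.p14, and capitals mark the letters AGATAA on either strand, a motif that GATA factors bind.
ABCG8: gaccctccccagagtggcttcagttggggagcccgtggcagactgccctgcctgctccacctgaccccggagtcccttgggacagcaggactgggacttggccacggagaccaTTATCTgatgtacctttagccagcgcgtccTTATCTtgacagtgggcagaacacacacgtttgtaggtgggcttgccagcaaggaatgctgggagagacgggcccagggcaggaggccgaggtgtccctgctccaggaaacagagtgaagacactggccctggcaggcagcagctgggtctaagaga
Of 53 such windows of 35 members in the RefSeq table, 5 held AGATAA (9.43%, in ABCA10, ABCB1, ABCB11, ABCG5 and ABCG8), against 10.3% of 35116 windows of all genes. The HNF1 motif, the HNF4 motif CAAAGTCCA and the DR4 repeat, which LXR and RXR bind, were also searched on both strands and were in 0 of the 53 windows and in 0.0057%, 0.384% and 0.0199% of all windows. A match in these letters is a description of the window and not a site.

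The remaining exporters of subfamily C went both ways. ABCC6 (chromosome 16, 16148928 to 16223522), whose loss causes ectopic calcification, had 0 reads in K562 against 294 in HepG2. ABCC6 was thus at least 79.6-fold higher in HepG2 by the interval and 98.5-fold at the floor. Its neighbour ABCC1, which starts on the other strand and ends 5853 bases away, had 906 and 747 reads. ABCC1, an exporter of glutathione conjugates, thus differed little, with a K562 to HepG2 ratio of 1.21 (1.09 to 1.33), and 281 of its K562 reads and 105 of its HepG2 reads lay on the first coding junction. With the most-read junction of every gene left out and the scale computed anew, the log2 ratio of ABCC1 was 0.00. ABCC3, which sends conjugates back to the blood, had 7 reads in K562 against 124 in HepG2, a HepG2 to K562 ratio of 17.8 (8.38 to 45.2).

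ABCC4 (ENSG00000125257, chromosome 13, 95019829 to 95301475) was the only exporter of the plasma membrane and canalicular group past the 2-fold limit toward K562. It exports cyclic nucleotides and other organic anions, and had 1827 reads in K562 against 319 in HepG2, a ratio of 5.70 (5.06 to 6.44). All 29 of its junctions with 10 or more reads lay on the K562 side, with log2 ratios between 1.11 and 4.58. The 189 compared genes of chromosome 13 had a median log2 ratio of -0.35, toward HepG2. In K562 the level of ABCC4 was 2.01-fold that of ABCC1 (1.85 to 2.18) in reads per coding junction, with 30 junctions in each gene. That ratio of means holds the first ABCC1 junction with its 281 reads, and by medians the levels were 56.5 and 16 reads per junction.

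ABCC5, a further anion exporter, had 368 and 391 reads and a K562 to HepG2 ratio of 0.937 (0.810 to 1.08). The sign of its log2 ratio, -0.09, turned with total-read scaling (0.33), with all mapped reads (0.03) and without the most-read junction of every gene (0.14). ABCC10 had 51 and 137 reads and a HepG2 to K562 ratio of 2.70 (1.94 to 3.80), which did not pass the rule with uniquely mapped reads and passed it with all mapped reads. The exporters below 20 reads were ABCC11, with 0 reads in K562 against 16 in HepG2, and ABCB11, with 6 and 0. ABCB11 encodes the bile salt export pump of the hepatocyte, and its absence of reads in HepG2 allows up to 3 counts there. ABCB5, ABCC12, ABCG1 and ABCG4 had 0 uniquely mapped reads in both lines.

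**Figure D2:**
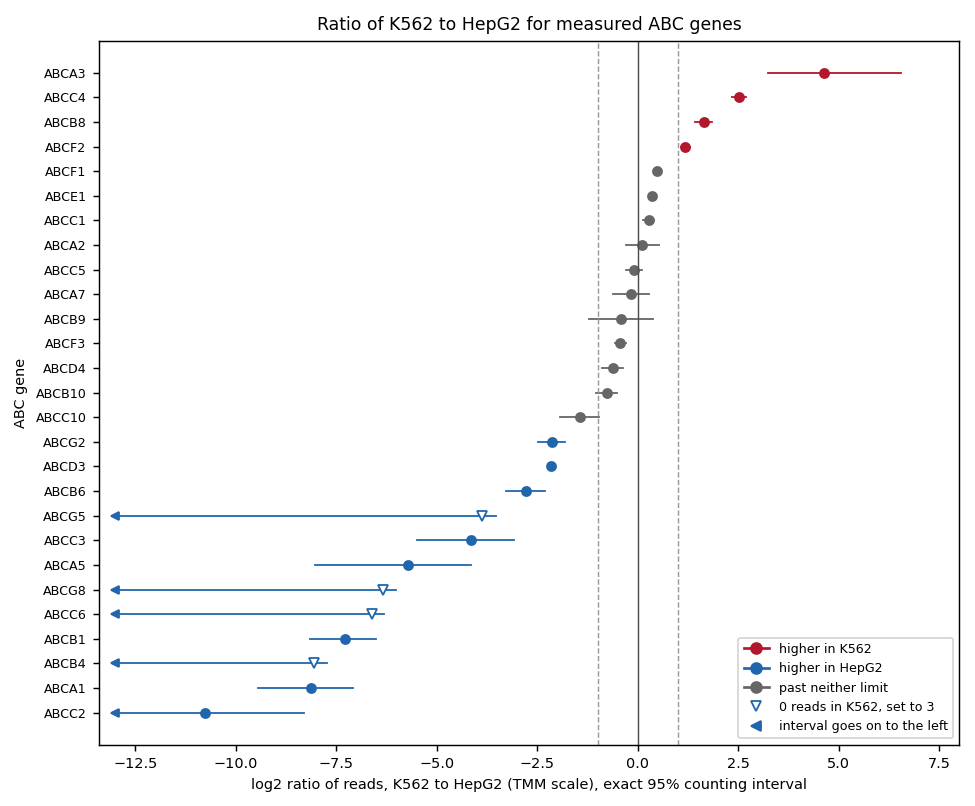
log2 ratio of reads in K562 to HepG2 (x axis, TMM scale) for 27 of the 29 compared ABC genes (y axis, ordered by ratio), with exact 95% counting intervals as horizontal lines and dashed lines at 2-fold; red genes were higher in K562, blue genes in HepG2 and gray genes past neither limit, open triangles had 0 reads in K562 and arrows mark intervals that run on. The blue genes reach a log2 ratio of -10.78 (ABCC2), and the red genes lie between 1.19 (ABCF2) and 4.64 (ABCA3).

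Lipid exporters of subfamily A were split by gene. Of 12 genes 5 were compared, of which 2 were higher in HepG2, 1 in K562 and 2 past neither limit. Over all genes 21.9% were higher in HepG2 and 16.8% in K562. The 3 that differed had under 20 reads in 1 line and entered through the other. ABCA1 (ENSG00000165029, chromosome 9, 104781002 to 104928237), which loads cholesterol and phospholipid onto apolipoprotein A-I, had 7 reads in K562 against 1952 in HepG2, a HepG2 to K562 ratio of 280 (136 to 698). All 46 of its junctions with 10 or more reads lay past 2-fold toward HepG2, which the read minimum alone fixes for those without reads in K562. ABCA5 had 3 and 158 reads, a ratio of 52.9 (17.8 to 259). It stands at the end of a cluster on chromosome 17 in which ABCA8 had 13 and 4 reads, ABCA6 1 and 2, and ABCA9 and ABCA10 had 0 in both lines. ABCA5 was thus the only gene of that cluster with 20 or more reads.

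ABCA3 (ENSG00000167972, chromosome 16, 2275881 to 2340746) went the other way. It is known for packing surfactant lipid into lamellar bodies of the lung, and had 100 reads in K562 against 4 in HepG2, a ratio of 24.9 (9.42 to 93.1). Its reads were spread thinly, with at most 12 on any coding junction in K562, and 25 of the 100 K562 reads lay in the 5′ untranslated region. ABCA2 and ABCA7 hardly differed. ABCA2, a lipid transporter known from brain, had 105 and 97 reads and a K562 to HepG2 ratio of 1.08 (0.810 to 1.43), and ABCA7, a phospholipid exporter, had 85 and 95 reads and a ratio of 0.891 (0.657 to 1.21). ABCA4 had 0 reads in K562 against 3 in HepG2, ABCA12 0 and 2, and ABCA13 0 in both.

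Transporters of subfamily B in mitochondria and lysosomes differed in direction among themselves. These are short proteins that act as pairs. ABCB8, of the mitochondrial inner membrane, had 777 reads in K562 against 248 in HepG2, a ratio of 3.12 (2.70 to 3.61), with 12 of its 14 junctions with 10 or more reads on the K562 side. The 535 compared genes of its chromosome 7 had a median of 0.42 on the log2 scale, against 1.64 for ABCB8, and the part of the chromosome in this ratio was not tested.

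ABCB10 and ABCB6 lay on the HepG2 side. ABCB10, a mitochondrial protein needed for heme formation in red cell precursors, had 209 reads in K562 against 356 in HepG2, a HepG2 to K562 ratio of 1.71 (1.44 to 2.04), past neither limit. All 10 of its junctions with 10 or more reads lay on the HepG2 side. ABCB6, a porphyrin transporter that carries the Lan blood group antigen, had 42 and 285 reads and a HepG2 to K562 ratio of 6.82 (4.92 to 9.67). These reads come from 4 of its junctions, since 15 others are also assigned to the overlapping gene ATG9A and held 182 reads in K562 against 929 in HepG2. With the shared junctions counted, the log2 ratio of K562 to HepG2 was -2.44 in place of -2.77. ABCB9, a lysosomal peptide transporter, had 25 and 33 reads and a HepG2 to K562 ratio of 1.33 (0.765 to 2.33).

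Subfamily D was led by ABCD3 in both lines. ABCD3 (ENSG00000117528, chromosome 1, 94418455 to 94518666) is the abundant peroxisomal membrane protein PMP70, which brings branched and long fatty acyl chains and bile acid precursors into the peroxisome. It had 1268 reads in K562 against 5620 in HepG2, a HepG2 to K562 ratio of 4.45 (4.19 to 4.74), with all 23 of its junctions with 10 or more reads on the HepG2 side. The median over its 22 coding junctions was 213 reads in HepG2, between 35 and 669, the first rank among the members there, and 41.5 in K562, between 7 and 259. ABCD4, a lysosomal protein of cobalamin export, had 212 and 325 reads and a HepG2 to K562 ratio of 1.54 (1.29 to 1.84), and the 367 compared genes of its chromosome 14 had a median of -0.77 for the log2 ratio of K562 to HepG2, against -0.62 for ABCD4. ABCD2 had 0 reads in both lines.

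The soluble translation factors were among the members read most in both lines and for the most part passed neither limit. ABCF1 (ENSG00000204574, chromosome 6, 30571376 to 30597179), which binds initiation factor eIF2, had 3481 reads in K562 against 2496 in HepG2, a ratio of 1.39 (1.32 to 1.46). ABCE1 (ENSG00000164163, chromosome 4, 145097932 to 145129179), which splits ribosomes after termination, had 2753 and 2153 reads, a ratio of 1.27 (log2 0.35). ABCF3 had 758 and 1021 reads, a K562 to HepG2 ratio of 0.739 (0.672 to 0.813). These 3 genes were past neither limit. ABCF2 (chromosome 7, 151212490 to 151227230) passed the rule with 1974 and 864 reads, a ratio of 2.27 (2.10 to 2.47), and all 13 of its junctions with 10 or more reads lay on the K562 side. Its log2 ratio of 1.19 stands beside the median of 0.42 on chromosome 7, and it lies 164707 bases from ABCB8, which was also higher in K562.

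Reads of ABCE1 and ABCF2 were the least often unique among the 4 translation factors. Of all mapped reads of ABCE1, 68.6% were uniquely mapped in K562 and 79.1% in HepG2, and of those of ABCF2 67.8% and 76.9%. With all mapped reads the log2 ratios were 0.53 for ABCE1 and 1.34 for ABCF2, against 0.35 and 1.19. In ABCE1 the junction chr4:145109250-145110102 had 233 unique reads in K562 and 714 in HepG2, against the direction of the gene, and 525 and 824 mapped reads. This junction had the most reads of the gene. With the most-read junction of every gene left out and the scale computed anew, the log2 ratio of ABCE1 was 0.85.

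By the median of reads per coding junction the order of members differed between the lines. These are unique reads, which made up 72.8% of all mapped reads of ABCE1, 70.3% of ABCF2 and 98.7% of ABCF1 over both lines. In each line, 3 coding junctions of ABCE1 and 1 of ABCF2 had 0 unique reads. The order was not corrected for this. In K562 ABCE1 was first with 144, followed by ABCF1 with 120.5, ABCF2 with 110 and ABCC4 with 56.5, and ABCD3 stood lower with 41.5. In HepG2 ABCD3 with 213 was followed by ABCB6 with 124 over only 3 coding junctions, ABCF1 with 88.5, ABCB1 with 66.5, ABCE1 with 65, ABCC2 with 56, ABCF2 with 42 and ABCA1 with 33. Junctions of 1 gene differed by more than these steps. ABCF1 ranged from 2 to 455 reads per junction in K562 and from 2 to 206 in HepG2, and ABCB1 from 15 to 330 in HepG2, so neighbours in either order did not differ beyond the spread over junctions.

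Which junctions of a gene were read most was alike in the lines. For 12 members with 100 or more coding reads in each line, Spearman's rho between the reads per junction in K562 and in HepG2 ranged from 0.552 (ABCB8, 15 junctions) to 0.936 (ABCF3, 20 junctions), with a median of 0.849. These correlations are across junctions of 1 gene, which share sequence context and mapping, and are given as a description. The coding sequence was also divided into 3 equal segments, and reads per junction were compared between the opening and the closing segment in members with 100 or more coding reads and at least 3 junctions in each. In K562, 8 of 12 such members had more reads per junction in the opening segment, with a median ratio of 1.28. In HepG2 it was 7 of 20 members, with a median ratio of 0.934. The sets of members differ, since many of those in HepG2 had too few reads in K562, so the counts are not matched. ABCF3 had ratios of 2.10 in K562 and 2.04 in HepG2 and ABCF2 of 2.94 and 2.15, whereas ABCF1 had 0.635 and 0.631, so each of these genes was sloped in the same direction in both lines. ABCB8 had 2.89 in K562 and 0.835 in HepG2. ABCC5 (1.48 and 0.908), ABCD3 (1.15 and 0.866) and ABCD4 (0.925 and 1.22) also differed in direction between the lines. ABCC4, with 1.03 and 0.980, was nearly flat in both. These ratios were not corrected for differences in unique mapping along a gene.

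**Figure D3:**
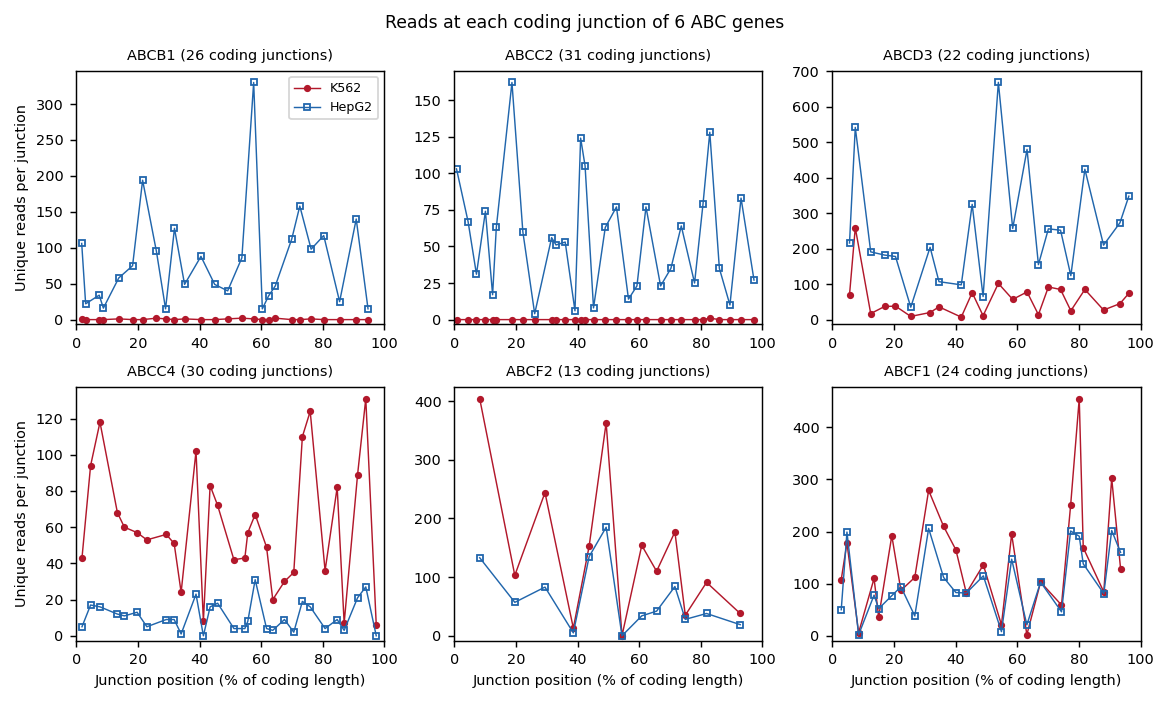
Unique reads at each coding junction (y axis) against the position of the junction in percent of the coding length (x axis) for 6 ABC genes, K562 in filled red circles and HepG2 in open blue squares; each panel has its own y axis. ABCB1 and ABCC2 stay near 0 along the whole coding sequence in K562, ABCD3 is higher in HepG2 and ABCC4 in K562 at nearly every junction, and the peaks of ABCF1 and ABCF2 fall on many of the same junctions in both lines.

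Nearly all reads of the members joined coding parts. Coding junctions took 98.0% of member reads in K562 against 99.1% in HepG2. The share at 5′ untranslated junctions was 1.96% (1.75 to 2.19) and 0.807% (0.697 to 0.929). Over all genes 5′ untranslated junctions took 6.47% and 3.29%. Only 5 members had 20 or more reads in each line and at least 10 reads in the 5′ untranslated region, and 2 of them, ABCE1 and ABCG2, had intervals that did not overlap, with the higher share in K562. Of 2504 genes measured in this way 31.5% had such a difference toward K562 and 3.15% toward HepG2. In ABCE1 147 of 2753 reads (5.34%, 4.53 to 6.25) lay there in K562 and 32 of 2153 (1.49%, 1.02 to 2.09) in HepG2. In ABCG2 the reads were 13 of 90 (14.4%, 7.92 to 23.4) and 7 of 395 (1.77%, 0.715 to 3.62). The intervals overlapped for ABCF2, with 4.51% and 2.43%, for ABCC5, with 9.24% and 7.16%, and for ABCB9, with 2 of 25 and 9 of 33 reads.

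The choice between competing junctions could be compared at few sites of the family. Shares were measured where 2 or more junctions with reads share a donor or acceptor with 20 or more reads in each line, which gave 32 junction shares at 15 sites in 10 members. A share was counted when it differed by 20 percentage points or more and the exact intervals did not overlap, and 0 of the 32 passed, against 4.2% of 23690 shares over all genes, a background so low that a count of 0 among 32 says little about the family. The largest differences were in ABCD4 and ABCC5, with intervals that overlapped. In ABCD4 the coding junction chr14:74298070-74299547 took 15 of 31 reads (48.4%, 30.2 to 66.9) in K562 and 27 of 109 (24.8%, 17.0 to 34.0) in HepG2. A 5′ untranslated junction of ABCC5 took 9 of 34 and 1 of 28. In ABCF2 the 5′ untranslated junction chr7:151226501-151226856 took 0 of 89 reads (0 to 4.06%) in K562 and 4 of 21 (19.0%, 5.45 to 41.9) in HepG2. Its intervals did not overlap, and it missed the rule only by its difference of 19.0 points. In ABCD3 a junction to the last exon of a shorter annotated transcript, chr1:94478316-94478523, took 4 of 40 reads (10%, 2.79 to 23.7) in K562 and 29 of 136 (21.3%, 14.8 to 29.2) in HepG2. These intervals overlapped, and the difference was under the 20 points that the rule asks for.

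The joined exons of these competing coding junctions are shown because the choice changes the coding sequence, with the upstream exon in lower case and the downstream exon in capitals. In ABCD4 the downstream exon is shared and the upstream exon differs, and in ABCD3 the upstream exon is shared.
ABCD4, intron 74298070 to 74299547: gttctgaactccacgCTGAAGAGCTTTGAT
ABCD4, intron 74298070 to 74300149: gcctgaccctactggCTGAAGAGCTTTGAT
ABCD3, intron 94478316 to 94480463: gcaattggagctcagGGCCCAGCGAGCATG
ABCD3, intron 94478316 to 94478523: gcaattggagctcagGTACTTGGAAAAATT

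Genes that work with these transporters were read from lists. The counts of each list stand beside 16.8% of all compared genes higher in K562 and 21.9% higher in HepG2. Of 15 uptake carriers and bile or lipid partners of hepatic export 11 were compared, and 10 were higher in HepG2 and 0 in K562 (median log2 ratio -4.57). Only 3 had 20 or more reads in each line, of which 2 were higher in HepG2, and the others entered through HepG2. APOA1, the acceptor of lipid from ABCA1, had 3 reads in K562 against 10533 in HepG2, APOE 1844 and 4085, and the drug and cation exporter SLC47A1 0 and 990. TMEM30A, a subunit of phospholipid flippases, had 861 and 1689 reads and passed neither limit. The hepatic uptake carriers SLC10A1, SLCO1B1 and SLCO1B3 had at most 1 read in either line.

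Of 18 nuclear receptors and other regulators known to act on ABC genes 14 were compared, 6 were higher in HepG2 and 0 in K562 (median -1.53). Of the 7 with 20 or more reads in each line, 1 was higher in HepG2. HNF4A had 0 reads in K562 against 1545 in HepG2, and NFE2L2, a regulator of the oxidative stress response, 151 and 613. The sterol regulators SREBF1, with 597 and 598 reads, and SREBF2, with 537 and 814, passed neither limit, and neither did the LXR genes NR1H2, with 86 and 69, and NR1H3, with 193 and 145. Of 4 compared relatives and partners under other symbols, the peptide transporter TAP1 was higher in HepG2 with 11 and 242 reads, while TAP2 with 17 and 29, TAPBP with 344 and 547 and TAPBPL with 10 and 26 passed neither limit. CFTR had 0 reads in both lines.

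Of 20 genes of peroxisomal import and oxidation 19 were compared, with 6 higher in HepG2, 1 in K562 and 12 past neither limit (median -0.49). The oxidation enzymes HSD17B4, with 2398 and 6934 reads, and ACAA1, with 277 and 1791, were higher in HepG2, as ABCD3 was. SCP2, with 1969 and 2758 reads, passed neither limit. The import factor PEX6 went the other way, with 158 reads in K562 against 54 in HepG2.

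Of 18 genes of ribosome recycling, stalling and eIF2 17 were compared, with 2 higher in each line and 13 past neither limit (median 0.37). The release factor GSPT1 had 4945 and 8058 reads, EIF2S1 3500 and 2698 and GCN1 2981 and 2953, all past neither limit. MCTS1, which recycles the small subunit, was higher in K562 with 7209 and 673 reads, and so was EIF2S3 with 2781 and 524, of whose reads 32.8% were uniquely mapped. The eIF2 kinase EIF2AK4, with 256 and 1761 reads, and EIF2S2, with 53 and 308, were higher in HepG2, though few reads of EIF2S2 (4.2%) were uniquely mapped.

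Of 13 iron-sulfur and heme partners 2 were higher in each line and 9 past neither limit (median -0.47). TMEM14C, CPOX, SLC25A39 and NFS1 passed neither limit, with 2659 and 1566, 628 and 1178, 733 and 1009, and 729 and 830 reads. The exceptions toward K562 were FECH, the last enzyme of heme synthesis, with 493 and 203 reads, and ALAS2, the erythroid first enzyme, with 177 and 1. GLRX5, which serves iron-sulfur assembly, was higher in HepG2 with 124 and 319 reads. The cobalamin genes LMBRD1, with 1009 and 1020 reads, MMADHC, with 2307 and 2419, and MMACHC, with 47 and 121, passed neither limit. The channel regulators ABCC8 and ABCC9 had 0 uniquely mapped reads in both lines, and their channel partners KCNJ11 and KCNJ8 had at most 1.

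**Figure D4:**
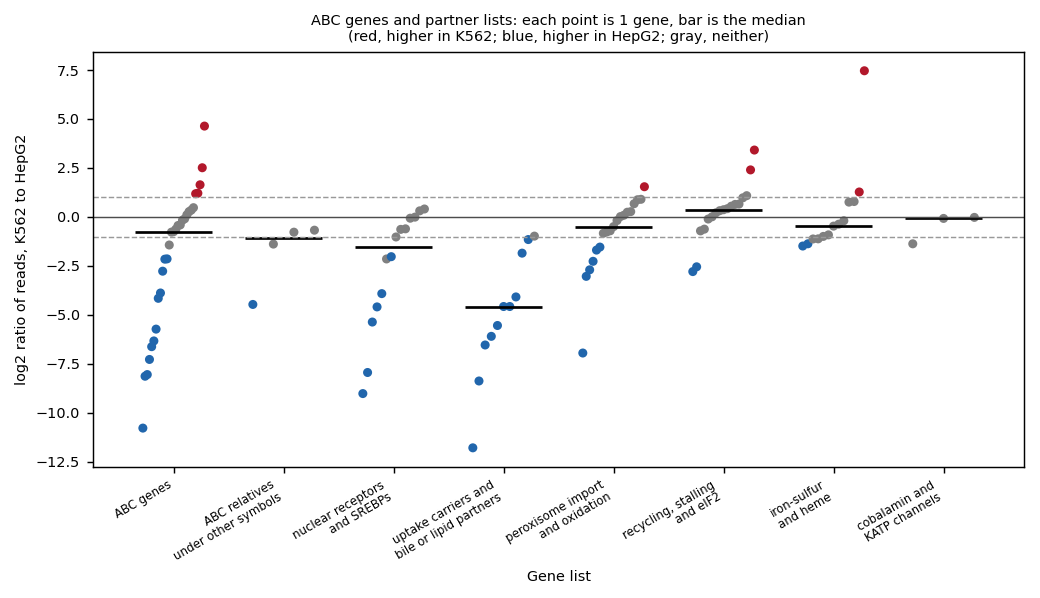
log2 ratio of reads in K562 to HepG2 (y axis) for the compared ABC genes and for each partner list (x axis); each point is 1 gene, black bars are medians, dashed lines mark 2-fold, and color gives the call. The uptake carriers and bile or lipid partners have a median of -4.57, most of them entering through HepG2 alone, and the recycling and eIF2 list lies near 0 (0.37), as do most ABC translation factors.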

How the data were processed

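Footprint reads were measured at annotated splice junctions in 4 samples, 2 each of K562 and HepG2, with 1 table per line, per the labels. Per the file headers, the authors deposited, for every junction, the count of mapped reads and that of uniquely mapped reads, unscaled. cutadapt, Bowtie2, STAR 2.6.0 and the builds hg38 and GRCh38 are named in the submitters' processing notes without their roles; the annotation release and junction counter were not given in the sources used here.

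Junctions were matched to introns of GENCODE release 29 on GRCh38 (99.8% matched). Unique reads of junctions of 1 gene were summed per gene, and the 6033 junctions of more than 1 gene were left out. Genes with 20 or more reads were compared by the ratio at TMM effective depths (edgeR 4.0.16), with an exact conditional binomial (Clopper-Pearson) interval from scipy 1.17.1. Counts of 0 were set to a floor of 3. No molecular identifiers are named in the labels, so reads may include PCR copies and intervals hold counting error alone. Coding had precedence where transcripts disagreed. Per member, the coding transcript with the most reads set the reads per junction. Every member with 20 or more reads is named by rule, except that a few genes are counted but not reported by name here; of each partner list, up to 4 genes with the most reads and up to 3 past 2-fold against the list's median are named, and others were chosen after their values were seen. Members and lists were chosen with earlier results of these data known. The interval code was tested on simulated data. Alternatives included DESeq2 1.42.0 size factors. Promoter windows are from RefSeq, GRCh38.p14.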

Additional observations from a re-analysis of the deposited data

How the results depend on the processing

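The 5 members higher in K562 stayed so under all 10 alternatives: total-read scaling, DESeq2 size factors, all mapped reads, minimums of 100 reads and of 1 read, 99% intervals, junctions that several genes share added to every one of them, the most-read junction left out, coding junctions only, and coding junctions 60 or more bases after the start. The count higher in HepG2 was 11 with the minimum of 100 reads, which leaves out ABCG5, 13 with all mapped reads, which adds ABCC10, and 13 with the minimum of 1 read, which adds ABCC11. It was 12, the same genes, under the other 7. Of 259 ratios of single members under the alternatives that can move a ratio (all but the 99% intervals), 226 stayed within the counting interval, 33 moved beyond it, and 0 of the called ones changed sign. Total-read scaling shifts the median log2 ratio of all genes from -0.01 to 0.41, and the member median from -0.75 to -0.33. No junction share was counted with all mapped reads or with 10 reads at the site, the alternatives that could add one; 40 points, 50 reads at the site and 99% intervals are stricter and could only give 0. No paired analysis was possible because both samples of a line share 1 table with no column per sample, and for the same reason no sample could be left out.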

Other observations

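Genes named after ABC members that the rule leaves out held few unique reads. Of 16 such pseudogenes and antisense genes, 12 had annotated junctions. ABCA17P had 4 unique reads in K562 and 0 in HepG2, ABCA11P had 0 and 3, and the others had 0 in both lines. Copies of ABCC6 held only reads that map to more than 1 place: ABCC6P1 had 98 mapped reads in HepG2 and 1 in K562, and ABCC6P2 had 47 and 0. Whether such reads came from the copies or from ABCC6 cannot be told. ABCC6 itself had 359 mapped reads in HepG2, of which 294 (81.9%) were unique, and 0 in K562. In HepG2, 7 of its 30 coding junctions had 0 unique reads. In ABCC5 the 5′ untranslated junction chr3:184014448-184017829 had 152 mapped reads in K562 and 111 in HepG2, of which 25 and 27 were unique.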
